A study of Mus musculus with 6 samples.

Results

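The immunity-related GTPases (IRG) are a family of IFN-inducible GTPases that mice use against microbes living in vacuoles. The members described are the 7 genes *Irgm1*, *Irgm2*, *Igtp*, *Iigp1*, *Tgtp1*, *Tgtp2* and *Ifi47*, taken by symbol, as names of the family, from the 55453 genes of the count table. All 7 were counted highly enough to be among the 13680 genes tested. RNA-Seq was made from bone marrow-derived macrophages (BMDM) of C57BL/6 mice, with 3 libraries from *LysMcre PP2Ac fl/fl* animals (PP2Ac KO) and 3 from WT animals (PP2Ac WT). In the KO animals *cre* is driven by the *Lyz2* (*LysM*) promoter and removes exon 1 of *Ppp2ca*, the gene of a catalytic subunit of the phosphatase PP2A. The WT mice were bought C57BL/6 animals that carry neither *cre* nor the floxed alleles, so that *cre*, the floxed alleles and the origin of the mice cannot be told apart from the loss of PP2Ac. The study used mice of 6 to 10 weeks, and its RNA-Seq BMDM received the STING agonist cGAMP at 10 μg/mL for 4 hours in both genotypes. The labels name the genotype and a replicate number and are silent on treatment. No untreated library was analysed here.

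IRG proteins fall into groups by the sequence of their nucleotide-binding loop. The regulatory or GMS proteins, *Irgm1*, *Irgm2* and *Igtp* (also called Irgm3), have methionine where other GTPases have lysine. They sit on the membranes of the cell's own organelles and hold the effectors in an inactive state. The effector or GKS proteins have the usual lysine, gather on the vacuole that surrounds *Toxoplasma* or *Chlamydia* and help to break it. *Iigp1* (Irga6), *Tgtp1* and *Tgtp2* (Irgb6) and *Ifi47* (Irgd) belong to this group. IFN-γ is the best known inducer of the family, and type I IFN induces it too.

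In the genome build GRCm38 (mm10), with GENCODE M21 annotation, 6 of the members lie on chromosome 11. *Irgm1* (48861968 to 48871683, reverse strand), *Tgtp1* (48985327 to 48994172, reverse), *Tgtp2* (49057194 to 49064206, reverse) and *Ifi47* (49076587 to 49096974, forward) span 235 kb. *Igtp* (58199556 to 58207591, forward) and *Irgm2* (58199618 to 58222782, forward) lie 9.10 Mb away and overlap each other. *Iigp1* lies elsewhere. All 7 are protein-coding.

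RefSeq promoters of build GRCm38.p6, which run from 250 bases before to 50 bases after a start site, were matched for 6 members and not for *Iigp1*. They were searched on both strands for the core of an IFN-stimulated response element (ISRE), which is GAAA, any 2 bases and GAAA, and for a γ-activated site (GAS), TTCNNNGAA, which is its own reverse complement. The stretches around the first motif are shown because the members rose together and because the stretches resemble each other. Each holds 60 bases, written 5′ to 3′ on the gene's strand and aligned on the ISRE core nearest the start, with matches to either motif in capitals.
*Irgm1* (chr11:48871425-48871484): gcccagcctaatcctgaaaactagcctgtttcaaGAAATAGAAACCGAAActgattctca
*Irgm2* (chr11:58214873-58214932): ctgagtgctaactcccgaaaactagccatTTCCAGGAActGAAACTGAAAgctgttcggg
*Igtp* (chr11:58199482-58199541): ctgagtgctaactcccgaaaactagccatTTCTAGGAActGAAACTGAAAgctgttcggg
*Tgtp1* (chr11:48992304-48992363): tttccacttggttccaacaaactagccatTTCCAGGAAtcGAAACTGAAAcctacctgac
*Tgtp2* (chr11:49064263-49064322): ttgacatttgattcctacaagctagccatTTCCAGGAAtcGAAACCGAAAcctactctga

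The ISRE core nearest the start began 24 bases before it in *Irgm1*, 34 in *Igtp*, 64 in *Irgm2*, 70 in *Tgtp2* and 77 in *Tgtp1*. *Irgm1* had 2 overlapping matches and no GAS. In the other 4 genes, a GAS ended 2 bases ahead of the ISRE core. The window of *Ifi47* held neither sequence. An ISRE core occurred in 3.44% of 32851 mouse promoters of this length and a GAS in 8.30%. The joined arrangement, a GAS, any 2 bases and an ISRE core, searched for after these promoters had been seen, occurred in 5 promoters of the 32851, those of *Igtp*, *Irgm2*, *Tgtp1*, *Tgtp2* and the IRG locus *Gm12185*. These genes belong to the same family and some are close copies of each other, so their promoters are not independent. The promoters of *Irgm2* and *Igtp* were identical at 81.3% of 300 aligned bases and those of *Tgtp1* and *Tgtp2* at 73.0%, against 45.7% to 55.3% for the other pairs of members.

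The libraries held 35257156 to 47390899 counts. At this depth 3 counts, taken as the floor of detection for counting error only, equal 0.0604 to 0.0909 CPM. *Ppp2ca* had 0.911 to 1.11 CPM in the KO libraries and 197 to 214 CPM in the WT libraries. The macrophage genes *Csf1r*, *Adgre1* and *Cd68* were abundant in both genotypes, *Csf1r* being the highest at 3405 CPM in KO and 3011 CPM in WT. The count of *Lyz2* was low, with 8.86 ± 1.13 CPM in KO and 7.30 ± 0.912 CPM in WT (SD, n = 3). Sequence that *Lyz2* shares with other genes was not examined, so this count may not give its level of expression.

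All 7 IRG genes were higher in PP2Ac KO than in PP2Ac WT BMDM, by 1.62-fold to 5.18-fold. The effector genes *Iigp1*, *Tgtp1* and *Tgtp2* had the largest increases, and the regulatory genes *Irgm1* and *Irgm2* the smallest. At FDR under 0.05, 7 of 7 were higher, where 18.1% of all genes tested were. At the study's thresholds for upregulated genes, an FDR under 0.01 with a log2 fold change above 1, 5 of 7 passed, where 3.36% of all genes did. *Irgm1* and *Irgm2* were the members below the fold threshold. In each of the 7, every KO library lay above every WT library, as in 24.0% of all genes tested. The median log2 fold change of the 7 was 1.13, against -0.02 for all genes tested. The tests were edgeR's quasi-likelihood tests with Benjamini-Hochberg adjustment over all genes. In bulk RNA, fewer cells that express a gene and less RNA per cell cannot be told apart, and the labels do not say whether the libraries of a genotype came from separate cultures or animals. The study's methods describe its cell experiments in general as biological triplicates, without saying whether these were separate animals. The p-values measure the spread between these libraries, which may in part be technical.

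**Figure D1:**
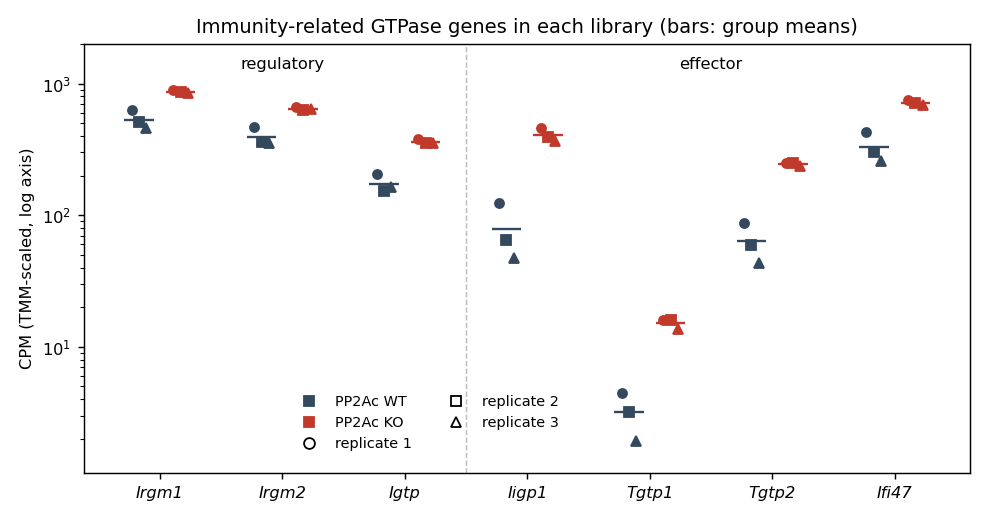
CPM of each IRG gene (log axis) in the 3 PP2Ac WT and 3 PP2Ac KO libraries, with symbols for replicate numbers and bars for group means. KO libraries lie close together above the WT libraries for all 7 genes, and the WT library of replicate 1 is the highest of its group in each.

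Among the regulatory genes, *Irgm1* encodes a GTPase of the Golgi and lysosomes whose loss makes mice susceptible to many intracellular microbes. It was counted at 887, 857 and 842 CPM in the KO libraries and at 629, 509 and 459.5 CPM in the WT libraries. The groups did not overlap, and the highest WT library came to within 1.34-fold of the lowest KO library. The means were 862 ± 23.0 and 532 ± 87.2 CPM (SD, n = 3), or a log2 increase of 0.70 ± 0.11 (SE, edgeR adjusted p = 0.00114).

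*Irgm2*, whose protein is found at the Golgi, had 661, 629 and 641 CPM in KO and 464, 362 and 352 CPM in WT. Its pattern was that of *Irgm1*, with even KO libraries and a high WT library of replicate 1. Its log2 fold change was 0.71 ± 0.11 (SE, edgeR adjusted p = 8.33e-04). The log2 ratio of *Irgm1* to *Irgm2* CPM within a library was 0.42 ± 0.03 in KO and 0.44 ± 0.05 in WT (SD, n = 3), and these overlapped (exact permutation test, p = 0.7).

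*Igtp*, whose protein sits on the endoplasmic reticulum and lipid droplets, had 377, 354 and 356 CPM in KO and 205, 152 and 164 CPM in WT. Its fitted change was above those of the other regulatory genes, at a log2 increase of 1.06 ± 0.11 (SE, edgeR adjusted p = 1.51e-04). Within libraries, the log2 ratio of *Irgm2* to *Igtp* fell from 1.18 ± 0.08 in WT to 0.83 ± 0.02 in KO (SD, n = 3). The groups did not overlap, and the exact permutation p was 0.1, the smallest that 3 against 3 libraries allow. *Igtp* and *Irgm2* share 162 bp of exon, 8.01% of the exons of *Igtp* and 4.39% of those of *Irgm2*, and reads there could be counted for either or neither.

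Among the effector genes, *Iigp1* (chromosome 18, 60376027 to 60392634, forward strand) encodes the best studied effector, which loads onto the vacuole of *Toxoplasma*. It was counted at 457, 396 and 365 CPM in KO and at 122.8, 64.5 and 47.4 CPM in WT. The lowest KO library was 2.97-fold above the highest WT library. Its log2 fold change of 2.37 ± 0.30 (SE, edgeR adjusted p = 3.81e-04) was the largest of the 7 and ranked 31 among all genes tested.

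*Tgtp2* had 248, 247 and 238 CPM in KO, a range of 1.04-fold, and 87.8, 59.6 and 43.7 CPM in WT, a range of 2.01-fold. Its log2 fold change was 1.94 ± 0.21 (SE, edgeR adjusted p = 1.84e-04). *Tgtp1* had 15.8, 16.0 and 13.7 CPM in KO and 4.47, 3.17 and 1.91 CPM in WT, a log2 increase of 2.24 ± 0.23 (SE, edgeR adjusted p = 1.51e-04). The genes encode nearly identical copies of Irgb6, an effector that is among the early arrivals at the *Toxoplasma* vacuole. Of the windows of 50 bases in *Tgtp1* transcripts, 79.4% also occur in *Tgtp2*, and 85.8% the other way round, so that counting could have split or dropped their reads and their levels are uncertain. Counted as 1 gene, they had a log2 fold change of 1.96.

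*Ifi47* encodes Irgd, a less studied effector. It was counted at 748, 712 and 693 CPM in KO and at 427, 304 and 256 CPM in WT. Its log2 fold change of 1.13 ± 0.16 (SE, edgeR adjusted p = 6.93e-04) was the smallest among the effector members and close to that of *Igtp*. The log2 ratio of *Igtp* to *Ifi47* differed by -0.09 between the genotypes, with overlapping libraries (exact permutation p = 0.9). *Ifi47* shares 111 bp of exon with *Olfr56*, whose annotated span also covers *Tgtp1* and *Tgtp2*.

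**Figure D2:**
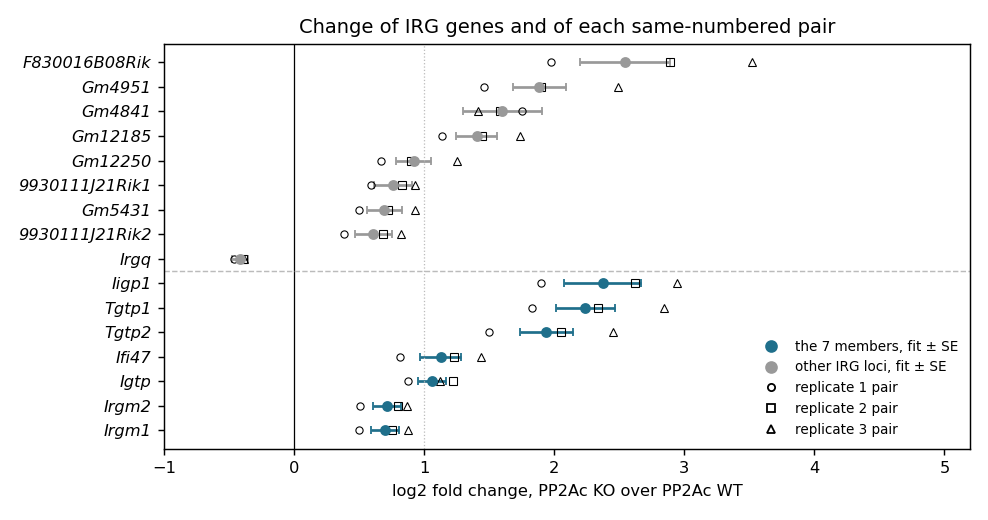
Log2 fold change of PP2Ac KO over PP2Ac WT for the 7 members and 9 other IRG loci, as the fitted value with its standard error and as the difference between libraries of the same replicate number. All 7 members lie right of 0 in all 3 pairs, from 0.50 to 2.95, and *Irgq* lies left of it.

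To set the members' changes against each other, their ratios within a library were compared between genotypes. Of 21 pairs of members, 18 (85.7%) had ratios that did not overlap, where 52.3% of all pairs of tested genes did not. The pairs of members share genes and are not independent, so this percentage is a description. Each of the 18 had an exact permutation p of 0.1, the smallest possible, and 0.117 after adjustment over the 21 pairs, so that none could pass. The pairs that overlapped were *Irgm1* with *Irgm2*, *Igtp* with *Ifi47* and *Iigp1* with *Tgtp1*. The last had a log2 ratio of 4.74 ± 0.11 in KO and 4.59 ± 0.22 in WT (SD, n = 3, exact permutation p = 0.5). Between libraries of the same number its ratio was higher in KO in 3 of 3 cases, by 0.07, 0.28 and 0.10 on the log2 scale (exact sign-flip test, p = 0.25, the smallest that 3 numbers allow), a comparison added after the data had been seen. The other overlapping pairs each had 1 number higher and 2 lower. With 3 libraries a group, overlap does not show that the members of a pair changed alike.

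Levels of different genes were compared per kilobase of annotated exons. In every KO library the order from high to low was *Ifi47*, *Igtp*, *Irgm2*, *Irgm1*, *Tgtp2*, *Iigp1* and *Tgtp1*. The group means ran from 290.2 CPM per kb for *Ifi47* through 179 for *Igtp*, 174 for *Irgm2*, 148 for *Irgm1*, 83.2 for *Tgtp2* and 69.7 for *Iigp1* to 4.74 for *Tgtp1*. *Igtp* and *Irgm2* overlapped across KO libraries, at 175 to 186 and 171 to 179 CPM per kb. In WT the means were 133 for *Ifi47*, 106 for *Irgm2*, 91.6 for *Irgm1*, 86.0 for *Igtp*, 21.7 for *Tgtp2*, 13.4 for *Iigp1* and 0.993 for *Tgtp1*. There, neighbours in the order overlapped across libraries except *Igtp* with *Tgtp2* and *Iigp1* with *Tgtp1*. *Igtp* therefore moved from the fourth place to the second by group means, and *Ifi47* was first in all 6 libraries. The exon length counts all annotated isoforms, which lowers the level of a gene with rarely used exons.

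Summed over the 7 members, the family made up 0.295% to 0.309% of all counts in KO libraries and 0.145% to 0.203% in WT libraries. Per kilobase, the 4 effector members together were 0.908, 0.902 and 0.866 of the 3 regulatory members in KO, and 0.670, 0.595 and 0.498 in WT. The KO libraries were all higher, with means of 0.892 ± 0.0230 and 0.588 ± 0.0866 (SD, n = 3). The log2 ratio differed by 0.61, with an exact permutation p of 0.1 (two-sided), the smallest the design allows. This ratio is taken within a library and does not depend on library scaling. With the mean of log2 levels over genes in place of the sum, in which the low *Tgtp1* counts as much as *Ifi47*, the difference was 1.16. *Ifi47* supplied 79.1% ± 2.36 of the effector sum in WT and 64.8% ± 0.546 in KO, and *Iigp1* 7.64% ± 1.55 and 15.5% ± 1.04 (SD, n = 3). The effector gene *Gm12250*, described below, is not among the members and was left out of the sum. It had 217 ± 6.73 CPM per kb in KO and 115 ± 24.6 in WT (SD, n = 3), above every effector member except *Ifi47*. Its log2 fold change of 0.92 was below that of the regulatory *Igtp* (1.06). The ratio thus describes the members only, and the ratio with *Gm12250* was not computed.

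**Figure D3:**
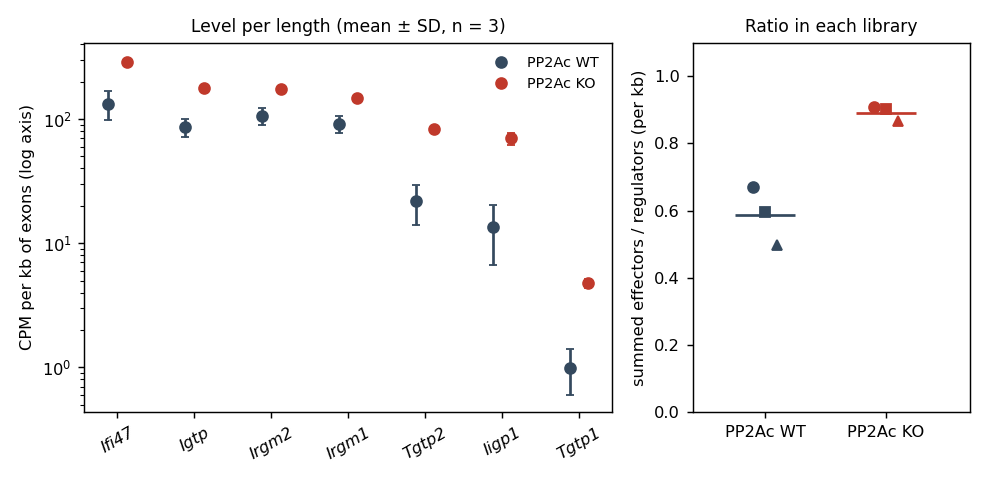
Left, CPM per kb of exons (log axis) of each member as mean and SD of 3 libraries, ordered by the KO level. Right, the ratio of summed effector members to summed regulatory members per kb in each library with group means, 0.892 in KO and 0.588 in WT.

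The WT libraries varied more than the KO libraries for all 7 genes. The coefficient of variation was 15.9% to 50.5% in WT and 2.14% to 11.5% in KO, where the medians over all genes tested were 8.54% and 7.51%. Of all genes tested, 55.7% varied more in WT. The WT library of replicate 1 was the highest of its group in 7 of 7 members (40.5% of all genes), and that of replicate 3 the lowest in 6 of 7 (37.2%). Among KO libraries, replicate 1 was the highest in 6 of 7 (35.6% of all genes) and replicate 3 the lowest in 5 of 7 (32.6%). The members are related genes and such counts over them are a description. Between libraries of the same number, *Iigp1* was 3.72-fold, 6.14-fold and 7.71-fold higher in KO for replicates 1, 2 and 3, and *Irgm1* 1.41-fold, 1.69-fold and 1.83-fold. Without the WT library of replicate 1, the log2 fold change was 2.86 for *Iigp1* and 0.83 for *Irgm1*. What sets that library apart was not tested.

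The genes tested whose pattern over the 6 libraries lay nearest to the mean pattern of the members were *Gm12185*, *Gbp3*, *Gpr141*, *Epsti1* and *Gbp5*. Likeness was the root-mean-square difference of centred log2 CPM, which was 0.042 for *Gm12185* and 0.067 for *Gbp5*. *Gm12185* and the member *Tgtp1* share 223 bp of exon, 3.99% of the exons of *Gm12185* and 6.96% of those of *Tgtp1*. Reads there could be counted for either or neither, and the part of this overlap in the likeness was not tested. *Gbp3* and *Gbp5* encode guanylate-binding proteins, and *Epsti1* is an IFN-induced gene. *Gbp5* had 1181, 982 and 969 CPM in KO and 504, 335 and 293 CPM in WT.

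Of 12 further loci listed as IRG or IRG-like, 9 were tested. At FDR under 0.05, 8 were higher and 1 lower (18.1% and 19.0% of all genes tested), and the median log2 value was 0.92. *Gm12250* encodes Irgb10, an effector that acts on bacterial membranes, though GENCODE M21 lists its locus as a pseudogene. It had 285, 268 and 278 CPM in KO and 179, 143 and 117 CPM in WT, a log2 increase of 0.92 ± 0.13 (SE, edgeR adjusted p = 7.62e-04). The promoter of *Gm12250* held 2 ISRE cores, both on the opposite strand, and a GAS. Those of *Gm5431*, *9930111J21Rik2* and *Irgq* held neither motif, and that of *9930111J21Rik1* held an ISRE core without a GAS.

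The loci *Gm4951*, *Gm4841* and *F830016B08Rik* lie on chromosome 18 near *Iigp1* and rose by log2 fold changes of 1.89, 1.60 and 2.55. *F830016B08Rik* had 10.2, 8.36 and 7.67 CPM in KO and 2.60, 1.13 and 0.668 CPM in WT, the widest WT range of these loci. *Gm4951* had 115, 112 and 114 CPM in KO and 41.6, 30.0 and 20.3 CPM in WT. *Gm4841* was low, with 2.64, 2.00 and 1.27 CPM in KO and 0.785, 0.667 and 0.477 CPM in WT. The largest changes among IRG genes were thus in *Iigp1*, its neighbours and the *Tgtp* pair. On chromosome 11, *Gm5431*, *9930111J21Rik1* and *9930111J21Rik2* rose by 0.69, 0.76 and 0.61 and *Gm12185* by 1.40. *Gm12185* shares exon sequence with *Tgtp1*, and the values of both may be affected by it. *9930111J21Rik1* shares 80.4% of its windows of 50 bases with *9930111J21Rik2*, so their separate values are uncertain.

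*Irgq*, an IRG-like gene that IFN is not known to induce, went the other way, from 28.8 ± 0.567 CPM in WT to 21.6 ± 0.879 CPM in KO (SD, n = 3), a log2 difference of -0.41 (edgeR, adjusted p = 8.81e-04). Its KO libraries all lay below its WT libraries, as in 26.8% of all genes tested. *Irgc1*, a testis gene of the family, had at most 8 counts in any library, and the pseudogene *Gm12187* at most 4. *Gm43302*, which was listed although its exons overlap *Gbp6* and *Gbp10* on chromosome 5, had 0 counts in every library, and all its windows of 50 bases occur in other genes.

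Other genes lie between or beside the members. Of 17 protein-coding genes within 100 kb of a member that are not IRG loci, 11 were tested, with 4 higher and 1 lower at FDR under 0.05 (36.4% and 9.09%, where 18.1% and 19.0% of all genes tested were) and a median log2 value of -0.05. The higher ones were *Olfr56* (1.49), *Psme2b* (0.73), *Smim3* (0.37) and *Rack1* (0.28), and *Gemin5* was lower (-0.31). *Psme2b* and *Olfr56* lie among the IRG genes. *Psme2b* shares 41 bp of exon with the IRG locus *9930111J21Rik1*, and reads there could be counted for either or neither. *Olfr56*, an olfactory receptor gene, was counted at 12.1 ± 2.07 CPM in KO and 4.29 ± 1.31 CPM in WT (SD, n = 3), and it shares exon sequence with *Ifi47*. *Trim7*, 9.76 kb from *Irgm1*, had a log2 fold change of -0.53 (edgeR, adjusted p = 0.0630, or 0.0216 in the blocked fit, where libraries of one replicate number form a pair). *Mrpl22*, which ends before *Igtp* starts, had -0.15 (adjusted p = 0.211). *Trim41*, *Cnot8*, *Zfp692* and *Zfp672* had -0.13, 0.15, -0.05 and -0.14, none past the threshold (with the block, *Trim41* and *Cnot8* passed it, with adjusted p = 0.0254 and 0.0106).

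**Figure D4:**
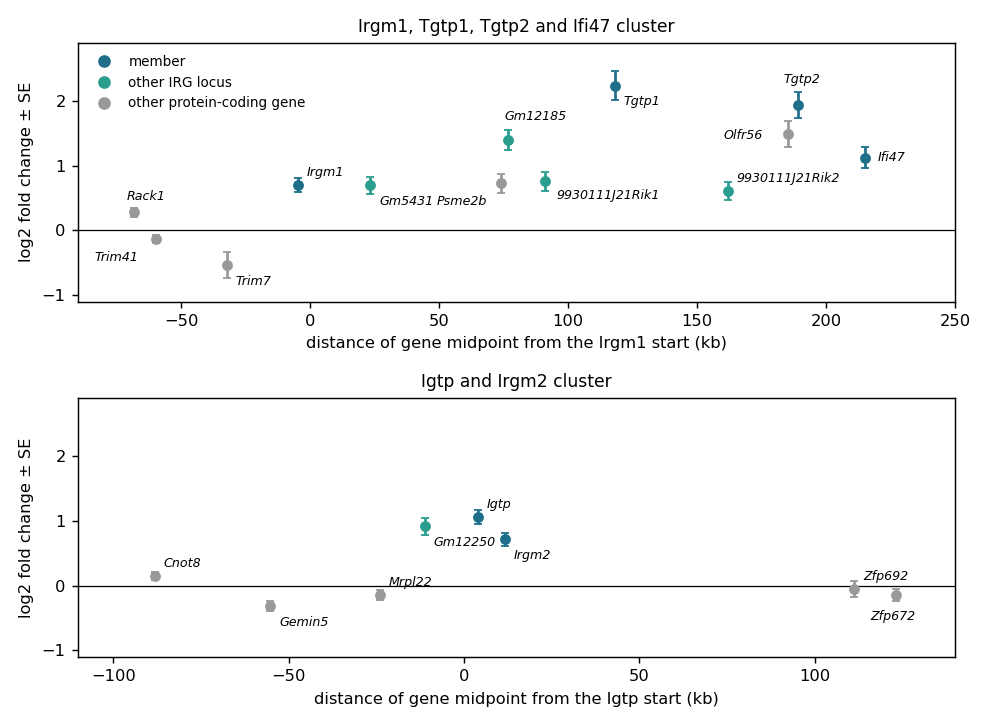
Log2 fold change with standard error against the distance of a gene's midpoint from the start of *Irgm1* (top) and of *Igtp* (bottom) in kb, for members, other IRG loci and other tested protein-coding genes. In the lower panel *Gm12250*, *Igtp* and *Irgm2* lie at 0.71 to 1.06 between neighbours at -0.31 to 0.15.

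The genes that induce the family were described from a list of 14 IFN ligands, receptors, kinases and transcription factors, of which 13 were tested. At FDR under 0.05, 9 were higher (69.2%, against 18.1% of all genes tested) and the other 4 did not pass, and the median log2 value was 0.35. In the blocked fit, where 24.4% of all genes were higher and 26.4% lower, 12 of the 13 were higher, and *Ifngr1*, a chain of the IFN-γ receptor, was lower (edgeR, adjusted p = 0.0307, without the block 0.207). *Ifnb1* (IFN-β) rose by 1.32, from 6.36 ± 2.30 to 15.9 ± 3.08 CPM. *Jak2*, a kinase of the IFN-γ receptor, rose by 1.18, from 157 ± 42.5 to 356 ± 46.2 CPM. *Irf1*, a transcription factor, rose by 0.64, from 366 ± 27.1 to 571 ± 20.9 CPM (SD, n = 3). *Ifng* had 0 counts in every library, which allows up to 0.0909 CPM.

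Guanylate-binding proteins act beside IRG effectors at vacuoles. Of 11 listed, 9 were tested and 9 were higher, against 18.1% of all genes tested. The median log2 value was 1.67, and the largest values were in *Gbp4* (from 6.72 ± 2.95 CPM in WT to 54.2 ± 7.49 CPM in KO), *Gbp8* (log2 value 2.75) and *Gbp6* (2.53). The least counted of the 9 had 22, 25 and 28 counts in KO and 17, 3 and 10 in WT. It passed the filter on low counts only with the help of the KO libraries, where it was higher. With at least 10 counts required in every library, 8 of the listed genes were higher, where 2369 of 12644 genes tested were. Of 5 large IFN-inducible GTPases, 5 were higher, against the same 18.1%, with a median of 0.73, among them *Gm1966* (2.11), *Mx1* (1.12) and *Gvin1* (0.73). Members of these families share sequence, and their separate values may be affected by it.

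The ATG8 conjugation machinery, which directs IRG effectors to the right membrane, was described from 11 genes. Of these 2 were higher (18.2%, near the 18.1% of all genes) and 4 lower (36.4%, against 19.0%), and the median was -0.02. *Atg16l1* and *Atg3*, parts of the conjugation enzymes, rose by 0.38 and 0.30, and *Gabarapl1*, an ATG8 protein, fell by 0.53 on the log2 scale (adjusted p = 0.00162, 0.00267 and 3.34e-04 from edgeR). Of 8 ubiquitin and autophagy receptor genes, 6 were higher (75%, against 18.1% of all genes) and 1 lower (12.5%, against 19.0%), and the median was 0.27. *Trim21*, a ubiquitin ligase of the vacuole, rose by 0.65, *Optn*, an autophagy receptor, rose by 0.51, and *Nbr1*, another, fell by 0.43. Without PP2Ac KO replicate 1 or 2, without PP2Ac WT replicate 2, or with upper-quartile scaling, 3 of these 8 (37.5%) were higher. Without PP2Ac KO replicate 1 or 2, or without PP2Ac WT replicate 2 or 3, 2 of the ATG8 genes (18.2%) were lower.

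**Figure D5:**
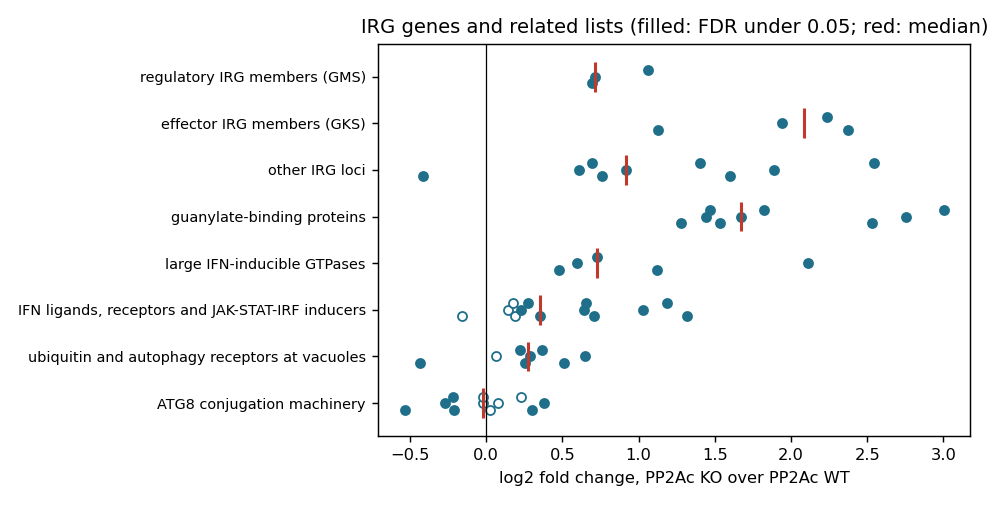
Log2 fold change of PP2Ac KO over PP2Ac WT for each tested gene of 8 lists, filled where FDR was under 0.05, with the median of each list in red. Medians run from 2.09 for the effector members to -0.02 for the ATG8 conjugation machinery.

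Markers of other cells were counted beside these genes. Of 7 T and NK cell markers, which mark the usual sources of IFN-γ, 6 had at most 3 counts in any library, and *Cd3e* had at most 5. Their sum was 0.0909 to 0.212 CPM in KO and 0.0239 to 0.115 CPM in WT. Sums were 0.684 to 1.34 and 0.501 to 0.584 CPM for 3 B cell markers, 0.815 to 0.878 and 0.644 to 1.07 for 5 neutrophil markers, and 0.647 to 1.76 and 0.763 to 1.13 for 4 dendritic cell markers. The 4 fibroblast markers *Col1a1*, *Col1a2*, *Col3a1* and *Dcn* were all lower in KO at FDR under 0.05, where 19.0% of all genes tested were. Their sums were 22.7 to 33.4 CPM in KO and 74.9 to 118 CPM in WT. The sum of 7 macrophage markers was 7294 to 7483 CPM in KO and 6170.1 to 6801 CPM in WT, and of these *Fcgr1*, itself IFN-inducible, rose by 0.70 and *Mertk* by 0.27. Mitochondrial genes took 1.12% to 1.24% of KO counts and 1.43% to 1.47% of WT counts. The part of these differences in the IRG values was not tested.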

How the data were processed

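RNA-Seq counts of 3 PP2Ac KO and 3 PP2Ac WT BMDM libraries were used. The authors deposited a table of raw counts per gene, without normalization, for genome build mm10. The submitters' processing notes name fastp 0.20.0, kallisto 0.46.1, STAR 2.7.1a, HTSeq 0.11.2, edgeR 3.34.0 and limma 3.48.3 without their roles, and strand setting and annotation release are not given in the sources used here. Libraries were directional, poly(A)-selected and read from both ends in 150 bases. Genotypes and replicate numbers came from the labels and column names. Treatment and age came from the study's text.

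The analysis ran in R 4.3.3 under edgeR 4.0.16. Genes passing filterByExpr (minimum count 10, minimum total 15) entered quasi-likelihood fits (glmQLFit, glmQLFTest) of genotype on TMM-scaled libraries, with adjustment over 13680 genes. Standard errors are the log2 fold change divided by the square root of F. CPM use TMM sizes. Single values were compared by two-sided exact permutation tests in scipy 1.17.1, which cannot give p under 0.1 here. Of the symbols, 98.4% occur in GENCODE M21, which gave coordinates and union exon lengths. Promoters came from RefSeq (GRCm38.p6) and were aligned with Biopython 1.88.

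Same-numbered libraries deviated together from their group means (correlations across genes of 0.289, 0.148 and 0.337), and a blocked fit, with that number as a term, was run. The pairing comes from the labels' numbers, and what they share is not stated. Within a genotype, libraries differed by 9.50 to 44.9 times the counting variance, more than copies of 1 library would. This does not tell separate cultures from separate preparations of the same RNA.

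The members and gene lists were chosen with earlier results of these data known. Genes named were the members, the other IRG loci, the 3 largest changes at FDR under 0.05 on each other list with *Ifnb1*, *Ifng*, *Irf1* and *Ppp2ca*, the 5 genes nearest in pattern, and tested neighbours within 100 kb. An item that this rule names is not reported here. *Lyz2*, *Csf1r*, *Adgre1*, *Cd68* and *Cd3e* were named as markers after their values were seen. Other settings tried were scaling by upper quartile or RLE, no filter, at least 10 counts in every library, DESeq2 1.42.0, limma-voom (limma 3.58.1), the block, each library left out, and *Tgtp1* and *Tgtp2* summed. On simulated counts with 200 changed genes among 13531, edgeR found 87 of 100 genes changed by a log2 fold change of 1 and 98 of 100 changed by 2, with 8 false calls. The simulated libraries were drawn independently. In the data, 2470 genes were called higher and 2604 lower, and same-numbered libraries deviated together, so these rates need not hold there.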

Additional observations from a re-analysis of the deposited data

How the results depend on the processing

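The 7 members were recomputed under 14 other settings, and in 96 of 96 gene values PP2Ac KO was higher (FDR under 0.05), the highest adjusted p being 0.00795. Log2 fold changes ranged from 0.60 to 0.83 for *Irgm1*, 0.64 to 0.85 for *Irgm2*, 0.97 to 1.20 for *Igtp*, 2.12 to 2.86 for *Iigp1*, 1.98 to 2.57 for *Tgtp1*, 1.73 to 2.24 for *Tgtp2* and 0.98 to 1.36 for *Ifi47*. The median of the members was 1.13, and 1.02 to 1.36 with a library left out. In the fit with the replicate block the median was 1.16 and 7 members were higher, where 24.4% of all genes tested were. There 5 members passed the study's thresholds, where 511 of 13680 genes did, and the block changed no call of a member. At these thresholds 4 members passed with upper-quartile scaling, where 401 of 13680 genes did. With a library left out 4 to 5 members passed, where 335 to 592 of all genes tested did. The effector to regulatory log2 difference of 0.61 was 0.81 without length, 0.50 without the *Tgtp* pair, 0.50 to 0.71 with a library left out and 0.61 within replicate numbers, where a sign-flip test of 3 pairs cannot go under 0.25. Of 168 list counts, 9 moved by over 1.5 times, for the ATG8, ubiquitin and inducer lists, and their values stand with those lists. The cause was not tested. Scaling by RLE and upper quartile put the median of all genes at -0.002 and -0.09. Depth limits *Irgc1*, *Gm12187* and *Ifng*, which were at or near the floor.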
